A study of Mus musculus with 16 samples.

Results

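The neurotrophins and their receptors measured here were the ligands Bdnf and Ntf3 and the receptors Ntrk2, Ntrk3, Ngfr and Sort1. They were taken by gene name from both deposited tables, and all 6 were present in each, among 19748 genes listed at P1 and 19014 at P14. The tissue was the medial prefrontal cortex, the part of the frontal cortex that serves planning and emotional control. Poly(A) RNA was sequenced in bulk from male mice of the outbred ICR strain, all without any engineered allele named in the labels. Their dams had either been stressed while pregnant (prenatal stress, PNS) or served as unstressed controls (Ctrl), and pups were sampled at 1 day (P1) or 14 days (P14) after birth. Each of the 4 groups had 4 libraries, 16 in all. The labels do not say which stressor was used, or whether libraries of a group came from separate animals or litters, so p-values measure the spread between these libraries, which may be technical.

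Neurotrophins are small secreted growth factors made as longer precursors. The mature proteins bind Trk receptor tyrosine kinases, which act through Ras, phospholipase C and PI3 kinase: brain-derived neurotrophic factor (BDNF, gene Bdnf) prefers TrkB (Ntrk2), and neurotrophin-3 (Ntf3) prefers TrkC (Ntrk3). All neurotrophins also bind the p75 receptor (Ngfr), and the uncleaved precursors bind p75 together with sortilin (Sort1), a sorting receptor that also guides pro-BDNF into secretory vesicles. In the cortex BDNF is transcribed in response to neuronal activity and serves synapse growth and the maturation of inhibitory neurons, while neurotrophin-3 is best known from earlier development.

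Bdnf (ENSMUSG00000048482, GRCm38 chromosome 2, 109674700 to 109727007, plus strand) has several alternative first exons, each with a promoter of its own, and the deposited counts add all of its transcripts together. RefSeq gave 7 promoter windows for Bdnf, 2 for Ntf3 (ENSMUSG00000049107, chromosome 6, 126101412 to 126166910, minus strand), 1 for Ngfr (ENSMUSG00000000120, chromosome 11, 95568818 to 95587735, minus strand) and 1 for Ntrk2. The windows below show the 250 bases before the annotated start site, 5′ to 3′ on the gene's strand in RefSeq's GRCm38.p6 table. They belong to the 3 members whose RNA differed most between the ages, and for Bdnf the window shown is the one that holds a cyclic-AMP response element-like site. Capitals mark that site (TCACGTCA, read as TGACGTGA on the other strand) in Bdnf and GC boxes (GGGCGG, or CCGCCC on the other strand) in Ntf3 and Ngfr.
Bdnf window 3, chr2:109692186-109692435, plus strand: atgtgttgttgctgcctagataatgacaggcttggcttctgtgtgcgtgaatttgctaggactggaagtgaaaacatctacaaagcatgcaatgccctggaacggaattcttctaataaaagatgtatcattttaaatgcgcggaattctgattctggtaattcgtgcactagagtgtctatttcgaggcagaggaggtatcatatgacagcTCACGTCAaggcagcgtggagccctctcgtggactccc
Ntf3 window 1, chr6:126164961-126165210, minus strand: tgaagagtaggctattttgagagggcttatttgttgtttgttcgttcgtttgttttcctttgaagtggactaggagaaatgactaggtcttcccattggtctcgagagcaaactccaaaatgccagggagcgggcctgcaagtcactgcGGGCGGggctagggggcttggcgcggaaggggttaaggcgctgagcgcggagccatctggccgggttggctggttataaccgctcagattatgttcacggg
Ntf3 window 2, chr6:126166745-126166994, minus strand: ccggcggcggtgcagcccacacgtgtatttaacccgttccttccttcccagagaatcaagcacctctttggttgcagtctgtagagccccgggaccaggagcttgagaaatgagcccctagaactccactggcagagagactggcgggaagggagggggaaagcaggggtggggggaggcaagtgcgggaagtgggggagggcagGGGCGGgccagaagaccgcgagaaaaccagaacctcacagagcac
Ngfr window 1, chr11:95587699-95587948, minus strand: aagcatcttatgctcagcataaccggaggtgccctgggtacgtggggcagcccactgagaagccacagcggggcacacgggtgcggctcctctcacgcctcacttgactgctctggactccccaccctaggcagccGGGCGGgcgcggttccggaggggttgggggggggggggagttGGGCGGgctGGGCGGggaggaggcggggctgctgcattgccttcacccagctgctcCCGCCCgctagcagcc

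The Bdnf site begins at position -38 from the start site and contains the core letters of the response element, CGTCA, at -35. In rat neurons a site of these letters in the activity-responsive Bdnf promoter is known to bind the factor CREB. The letters TCACGTCA, on either strand, were found in 0.441% of 32851 windows of 300 bases and the core TGACG, or CGTCA on the other strand, in 20.8%, and of the 7 Bdnf windows only this one held either. The Ngfr window held 4 GC boxes, and GC boxes were also in both Ntf3 windows, as in 35.7% of all windows. The second Ntf3 window also held an E-box (CACGTG) at -231, a motif found in 7.15% of windows. These matches describe letters in the windows shown and were not linked to any measured binding.

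The libraries held between 34.0 M and 58.8 M recovered reads at P1 and between 15.1 M and 73.0 M at P14. Markers of cortical projection neurons were present in every group, with 7 of the 8 listed genes in the tables at both ages, so the RNA carried the signature of cortex. Olfactory bulb markers, 8 of 8 listed, summed to between 920.7 and 2778 normalized counts in Ctrl and between 435 and 13120 in PNS at P1, with PNS libraries 1, 2 and 3 above every control. Meningeal fibroblast markers summed to between 30730 and 36070 in Ctrl and between 36050 and 62240 in PNS at P1. Libraries of the same group differed by more than sampling noise in all 24 pairs.

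Between P1 and P14 the members moved in opposite directions. Bdnf rose about 16 times, Sort1 and Ntrk2 rose, Ntf3 and Ngfr fell, and Ntrk3 changed least. These changes were seen in unstressed and prenatally stressed mice alike in direction, whereas prenatal stress itself changed none of the 6 genes past the test at either age.

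The change with age was read from recovered reads scaled to library size by TMM (CPM), since the 2 deposited tables had been normalized separately. For Bdnf the CPM in the 4 P1 controls were 1.27, 2.78, 2.74 and 1.90, and in the 4 P14 controls 32.3, 36.0, 37.7 and 32.7. In PNS mice they were 2.71, 2.29, 3.06 and 1.94 at P1 and 38.7, 37.7, 43.2 and 32.8 at P14. Every P14 library lay far above every P1 library, and the spread among libraries was small beside the step between ages. Bdnf rose 15.9-fold in Ctrl (95% interval 12.1 to 21.1) and 15.3-fold in PNS (11.6 to 20.1), with edgeR quasi-likelihood adjusted p-values of 7.5e-12 and 6.9e-12. A rise of at least 8-fold was called in 2.09% of the 17139 genes tested in Ctrl and 1.66% in PNS, and a rise of at least 4-fold in 5.83% and 5.2%. Bdnf shares 896 exon bases with Gm45346, an antisense gene on the opposite strand that is in neither table. The strand of the libraries is not given, so reads of both genes cannot be told apart there.

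Neurotrophin-3 went the other way. Ntf3 CPM were 10.04, 13.5, 19.1 and 14.5 in the P1 controls and 2.22, 1.03, 0.558 and 1.596 in the P14 controls. In PNS mice Ntf3 CPM were 9.75, 7.54, 19.3 and 10.3 at P1 and 0.472, 0.597, 1.59 and 1.34 at P14. The ages did not overlap, and the third library of each P1 group was the highest of its group. Ntf3 fell by 3.29 ± 0.379 (SE) on the log2 scale in Ctrl and by 3.50 ± 0.403 in PNS, or 9.75-fold and 11.3-fold, with edgeR adjusted p-values of 5.8e-07 and 5.7e-07. Falls of at least 8-fold were called in 0.794% of tested genes in Ctrl and 1.18% in PNS. The P14 values rest on few reads, from 8 to 147 a library in Ctrl and from 12 to 61 in PNS, and its P14 spread is the widest among the members.

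**Figure D1:**
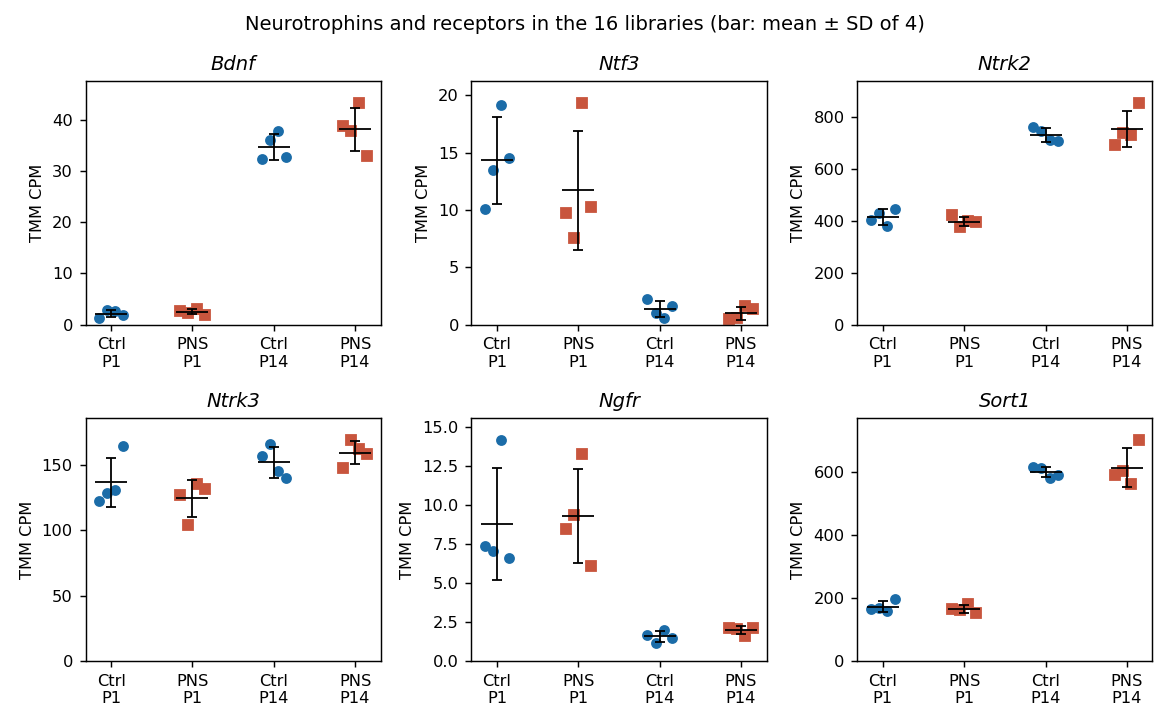
TMM-scaled CPM (linear vertical axis from 0) of the 6 members in the 16 libraries, 4 for each group on the horizontal axis. Points are libraries, and bars are the mean with the SD of 4 libraries. Bdnf goes from about 2 to above 30 CPM between P1 and P14, Ntf3 and Ngfr drop, and Ctrl and PNS overlap in every panel at each age.

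Set per kilobase of exon, the 2 ligands changed places. At P1 the Ntf3 level per kilobase was 17.7 to 28.6 times that of Bdnf in the Ctrl libraries and 11.9 to 22.9 times in the PNS libraries. At P14 the Bdnf level per kilobase was 4.02 to 18.6 times that of Ntf3 in Ctrl and 6.74 to 22.6 times in PNS. The ratio thus lay on opposite sides of parity in all P1 and all P14 libraries. With the longest coding transcript in place of all exons the side was the same in each library.

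TrkB and TrkC, the kinase receptors for these ligands, behaved differently from each other. Ntrk2 (ENSMUSG00000055254, chromosome 13, 58806569 to 59133970, plus strand) averaged 414.2 ± 29.2 CPM in Ctrl and 397.0 ± 19.2 in PNS at P1 and 730.3 ± 26.5 and 752.0 ± 69.97 at P14 (SD, n = 4 each). All P14 libraries, from 689.4 to 852.1 CPM, were above all P1 libraries, from 375.1 to 446.7. Ntrk2 rose 1.76-fold in Ctrl (95% interval 1.59 to 1.96) and 1.89-fold in PNS (1.71 to 2.10), with edgeR adjusted p-values of 1.7e-08 and 3.7e-09. Ntrk3 (ENSMUSG00000059146, chromosome 7, 78175959 to 78738012, minus strand) averaged 136.4 ± 18.8 and 124.2 ± 14.04 CPM at P1 and 151.8 ± 11.8 and 159.0 ± 8.84 CPM at P14 in Ctrl and PNS (SD, n = 4 each). The ages overlapped in Ctrl, between 122.1 and 164.0 CPM at P1 and between 139.4 and 165.8 at P14, and did not overlap in PNS, whose highest P1 library had 134.9 and lowest P14 library 147.6. The Ntrk3 change did not pass in Ctrl (1.11-fold, 0.969 to 1.28, edgeR adjusted p = 0.15) and passed in PNS (1.28-fold, 1.11 to 1.47, adjusted p = 0.0030). Without the fourth P1 control, the library with the highest Ntrk3 at P1, it passed in Ctrl too (log2 0.26, adjusted p = 0.011). These 2 changes are not shown to differ: the test of the difference gave 0.22 ± 0.132 (SE) on the log2 scale and a limma adjusted p of 0.84. Both genes also make truncated receptors that lack the kinase, and counts per gene do not separate these from the full-length forms.

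The p75 receptor fell. Ngfr CPM were 7.38, 7.07, 14.2 and 6.65 in the P1 controls and 1.69, 1.15, 2.02 and 1.52 in the P14 controls. In PNS mice Ngfr CPM were 8.49, 9.35, 13.3 and 6.10 at P1 and 2.16, 2.05, 1.62 and 2.13 at P14. Every P14 library was below every P1 library, and the third P1 library of each group again stood highest. Ngfr fell by 2.51 ± 0.278 (SE) on the log2 scale in Ctrl and by 2.23 ± 0.274 in PNS, or 5.68-fold and 4.70-fold, with edgeR adjusted p-values of 3.4e-07 and 1.2e-06. Falls of at least 4-fold were called in 3.44% of tested genes in Ctrl and 4.21% in PNS. Markers of meningeal fibroblasts fell over the same interval, 9 of 10 in Ctrl (median log2 -1.18) and 10 of 10 in PNS (median log2 -1.96), beside 36.4% and 38.0% of all genes called lower, and their part in the falls of Ngfr and Ntf3 was not tested. In bulk tissue, fewer cells that express a gene and less RNA of it per cell cannot be told apart.

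Sortilin rose. Sort1 (ENSMUSG00000068747, chromosome 3, 108284082 to 108361511, plus strand) had 166.8, 169.5, 161.0 and 197.5 CPM in the P1 controls and 615.8, 611.0, 581.0 and 591.4 CPM in the P14 controls. In PNS mice the Sort1 CPM were 164.9, 162.5, 182.8 and 154.6 at P1 and 589.3, 603.4, 561.0 and 701.2 at P14. The ages were far apart, and among the P14 libraries the fourth PNS library was the highest. Sort1 rose 3.45-fold in Ctrl (95% interval 3.07 to 3.89) and 3.69-fold in PNS (3.28 to 4.16), with edgeR adjusted p-values of 3.5e-12 and 1.9e-12. Sort1 shares 338 exon bases with Gm12523, a gene on the opposite strand that is in both tables, and the strand of the libraries is not given, so reads of the 2 cannot be told apart there. Astrocyte markers rose over the interval in which Sort1 and Ntrk2 rose, 8 of 9 in both conditions (median log2 1.92 in Ctrl and 1.21 in PNS). Myelin markers rose too, 7 of 7 tested in Ctrl (median 3.28) and 6 of 7 in PNS (median 2.13), beside 34.8% and 34.3% of all genes called higher. Their part in the rises of Sort1 and Ntrk2 was not tested.

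Counted together, 5 of 6 members were called between ages in Ctrl, 3 higher and 2 lower at P14, against 71.2% of all tested genes. In PNS all 6 of 6 were called, 4 higher and 2 lower, against 72.3%. With only 6 members and most of the table called, these counts show nothing particular about the members. The median log2 change of the 6 was 0.49 in Ctrl and 0.64 in PNS, beside -0.04 and -0.07 over all genes tested. Any batch that went with age cannot be told apart from age, since the labels name none.

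Per kilobase of exon, the order of the levels changed with age. In the P1 controls Sort1 (23.0 CPM per kilobase) and Ntrk2 (21.5) came highest with overlapping ranges, then Ntf3 (8.35), Ntrk3 (4.52) and Ngfr (2.56), whose range overlapped that of Ntrk3, and Bdnf (0.349) was lowest. In the P14 controls Sort1 (79.2 CPM per kilobase) stood above Ntrk2 (37.9), followed by Bdnf (5.57) and Ntrk3 (5.03) with overlapping ranges, and by Ntf3 (0.788) and Ngfr (0.463), which also overlapped. PNS libraries gave the same order at both ages, with Ntf3 and Ntrk3 also overlapping at P1. Bdnf, the member at the bottom of the order at P1, was next after sortilin and TrkB at P14. The place of Sort1 against Ntrk2 depends on the length used: per kilobase of the longest coding transcript Ntrk2 was higher at P1 (47.4 against 25.4 in Ctrl), and their ranges overlapped at P14.

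Sort1 and Ntrk2 varied within narrow ranges among the libraries of a group. The coefficient of variation of the CPM ranged over the 4 groups from 2.73% to 9.93% for Sort1, from 3.62% to 9.30% for Ntrk2 and from 5.56% to 13.8% for Ntrk3. It ranged from 7.55% to 33.3% for Bdnf, from 12.7% to 40.7% for Ngfr and from 26.2% to 55.0% for Ntf3. The ranges of Bdnf and Ntrk3 overlap, and in the P14 controls Bdnf (7.55%) varied less than Ntrk3 (7.79%).

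The effect of prenatal stress was tested within each age on the deposited normalized counts. For Bdnf at P1 the control libraries had 64.6, 141.1, 138.8 and 97.3 normalized counts and the PNS libraries 137.8, 116.6, 152.2 and 97.5. At P14 the Bdnf counts were 1061, 1183, 1264 and 1081 in Ctrl and 1297, 1252, 1434 and 1090 in PNS. The groups overlapped at both ages, with the highest library of each age in PNS and the lowest in Ctrl. The PNS to Ctrl ratio of Bdnf was 1.18 at P1 (95% interval 0.793 to 1.75, limma adjusted p = 0.86) and 1.103 at P14 (0.958 to 1.27, adjusted p = 0.99). These ratios come from log2(value + 1), where a pseudocount of 1 shrinks the change of sparse genes. Neither passed. The P1 log2 difference of 0.24 was 0.0031 without the first control, the library lowest in Bdnf, 0.37 without either the second or the third control, 0.35 without PNS library 4, and 0.14 without PNS library 3.

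Ntf3 at P1 had 509.2, 687.1, 969.0 and 745.8 normalized counts in Ctrl and 496.6, 384.1, 960.2 and 517.4 in PNS. At P14 it had 72.8, 34.0, 18.7 and 52.8 in Ctrl and 15.8, 19.9, 53.0 and 44.6 in PNS. Within each age the groups overlapped, and the averages of PNS were the lower ones. The ratio was 0.783 at P1 (95% interval 0.519 to 1.18, limma adjusted p = 0.81) and 0.75 at P14 (0.364 to 1.54, adjusted p = 0.99). Leaving out 1 library moved the log2 difference between -0.62 (without PNS library 3) and -0.18 (without PNS library 2) at P1. At P14 it moved between -0.76 (without the third control) and -0.13 (without the first control). The P14 interval spans 0.364 to 1.54, so these libraries bound a stress effect on Ntf3 only loosely at that age.

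Among the receptors, Ntrk2 averaged 21070 ± 1606 in Ctrl and 20050 ± 1005 in PNS at P1 and 24150 ± 719 and 25030 ± 2247 at P14 (normalized counts, SD, n = 4 each). The intervals of its PNS to Ctrl ratio were narrow, 0.856 to 1.06 at P1 and 0.928 to 1.15 at P14. For Ntrk3 the averages were 6939 ± 1002 and 6268 ± 662 at P1 and 5021 ± 363 and 5291 ± 275 at P14, and the intervals of the ratio ran from 0.769 to 1.07 and from 0.954 to 1.17. These 2 kinase receptors and Sort1, with intervals from 0.844 to 1.07 and from 0.920 to 1.15, are the members for which the data bound a stress effect most tightly. Their limma adjusted p-values ranged from 0.81 to 0.86 at P1 and were 0.99 at P14.

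Ngfr at P1 had 374.2, 359.4, 718.4 and 341.2 normalized counts in Ctrl and 432.2, 476.7, 662.9 and 307.4 in PNS. At P14 it had 55.5, 38.0, 67.7 and 50.4 in Ctrl and 72.6, 68.2, 53.8 and 70.8 in PNS. The groups overlapped at both ages, and at P1 the third library was the highest of each group. The ratio was 1.06 at P1 (95% interval 0.701 to 1.61, limma adjusted p = 0.96) and 1.27 at P14 (0.935 to 1.72, adjusted p = 0.99). The P1 difference, log2 0.09, was -0.096 without PNS library 3, the PNS library highest in Ngfr, -0.02 without the fourth control and 0.34 without the third control. It was -0.22 without PNS libraries 2 and 3, those highest in olfactory bulb markers, a setting that removes the highest PNS library and keeps the highest control.

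In all, 0 of 6 members were called for prenatal stress at P1, 0 of 6 at P14 and 0 of 6 in the difference between the effects at the 2 ages. The background was equally empty, with 0% of 16711 genes called at P1, 0% of 15873 at P14 and 0% of 15502 in the difference by limma. An unadjusted p below 0.05 was found in 1115, 479 and 913 genes in these fits, none of them a member. In other limma fits at P1 the unadjusted p of Ntf3 did go below 0.05. It was 0.012 without PNS library 3 and 0.025 without the third library of both groups. It was 0.049 with a replicate block and 0.049 without PNS libraries 2 and 3. The adjusted p of Ntf3 was at least 0.68 in every alternative at P1. edgeR called 0 genes in each comparison, and DESeq2 called 79, 5 and 11, again with no member among them. The effect at P14 minus that at P1 ranged over the members from -0.09 (Bdnf) to 0.25 (Ngfr) on the log2 scale, with limma adjusted p-values from 0.84 to 0.99. A p that misses the threshold does not show that the groups are alike.

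**Figure D2:**
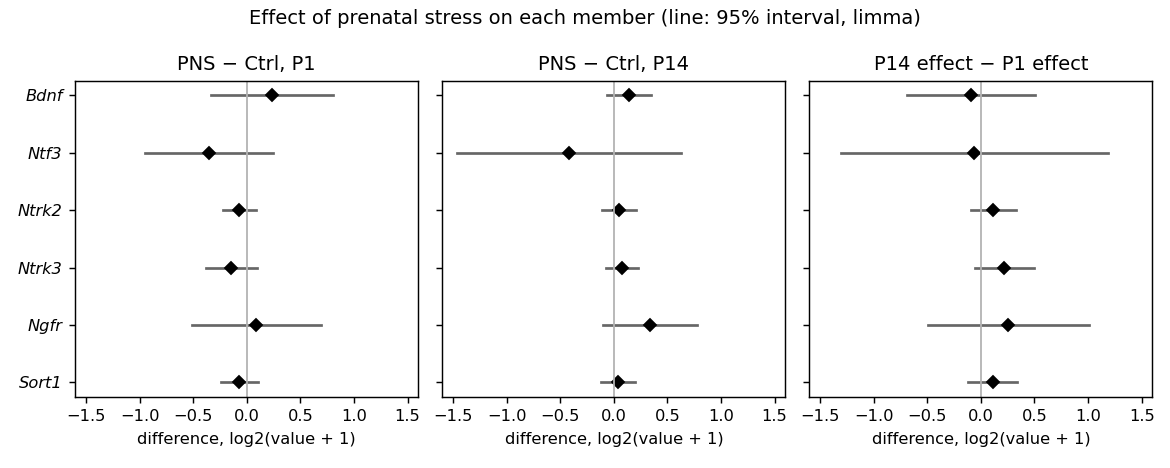
PNS minus Ctrl at P1 and at P14, and the P14 effect minus the P1 effect, for each member (vertical axis), as differences of log2(value + 1) on the horizontal axis. Diamonds are limma estimates from 4 libraries a group and lines their 95% intervals. Every line crosses 0, and the lines for Ntrk2, Ntrk3 and Sort1 are the narrowest in each panel.

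At P1 the third control and the third PNS library were the highest in both Ngfr (718.4 and 662.9 normalized counts) and Ntf3 (969.0 and 960.2). The other P1 libraries had 307.4 to 476.7 in Ngfr and 384.1 to 745.8 in Ntf3. In the forebrain p75 is known from cholinergic neurons of the basal forebrain and septum. A list of 7 genes of that region, chosen after these values were seen, was therefore read in every library. Its sum was 5024 in the third control and 3493 in the third PNS library, against 552.7 to 1908 in the other P1 libraries. Lhx8, a transcription factor needed for cholinergic neurons, had 380.1 and 157.5 normalized counts against 2.38 to 33.8. Zic4, a septal transcription factor, had 3997 and 2809 against 497.7 to 1744. Chat, the acetylcholine synthesizing enzyme, stood at 5.39 and 7.96 against 0 to 1.93. All 7 listed genes were highest in these 2 libraries, 1 in each group. The 7 listed markers of GABAergic neurons also summed highest there, to 35370 in the third control and 33810 in the third PNS library against 21510 to 28580 in the others. Gad1, which makes GABA, had 7103 and 6953 normalized counts against 2508 to 5023. Other genes of this list did not follow in full. Lhx6 had 4649 in the third PNS library, near the lowest PNS value of 4570 and below the highest of 5649. Dlx2 was lower in the third control (3381.5) than in the first (3915). Dlx1 was lower in the third PNS library (10152) than in PNS library 2 (10370). The part of such tissue or neurons in the Ngfr and Ntf3 values was not tested. Without both libraries the P1 difference between PNS and Ctrl was 0.15 for Ngfr and -0.47 for Ntf3 on the log2 scale, and 0 members were called.

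**Figure D3:**
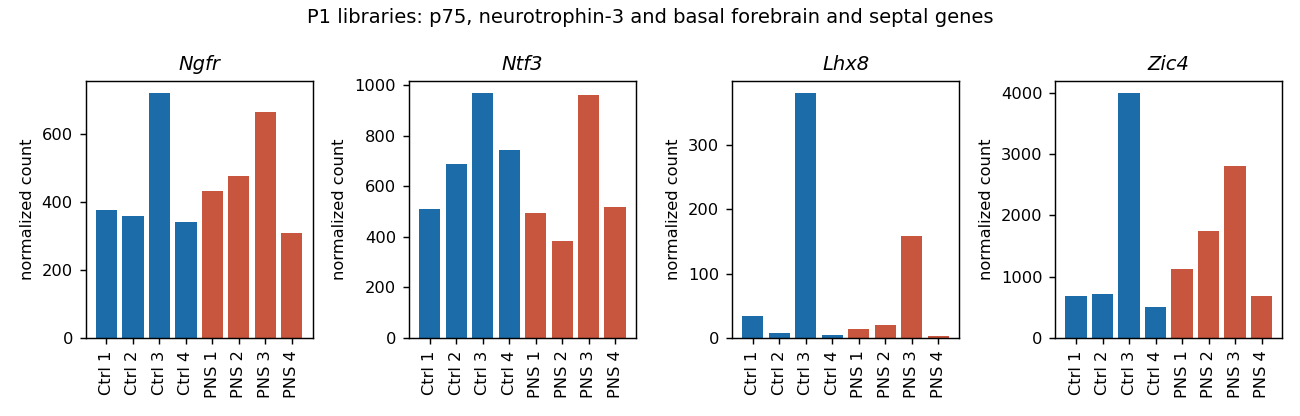
Normalized counts (linear vertical axis from 0) of Ngfr, Ntf3, Lhx8 and Zic4 in each of the 8 P1 libraries on the horizontal axis, Ctrl and PNS in different colours. The third library of each group is the highest in all panels, with Ngfr at 718.4 and 662.9 and Lhx8 at 380.1 and 157.5.

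At P14 the order of the libraries in Ngfr went with activity-induced genes. The sum of 9 immediate early genes, which neurons transcribe within minutes of strong activity, was 23300, 22090, 37500 and 21770 normalized counts in Ctrl and 48270, 47080, 22990 and 41150 in PNS. The 4 libraries with the highest sums, the third control and PNS libraries 1, 2 and 4, were also the 4 highest in Ngfr, at 67.7 to 72.6 against 38.0 to 55.5 in the others. Ngfr rests on few reads at P14, 29 to 112 a library in Ctrl, the 29 being those of the third control, and 54 to 62 in PNS, so the order of single libraries lies within reach of counting error. Bdnf, itself an activity-induced gene, followed this order in part. Of these 4 libraries, the third control and PNS libraries 1 and 2 had 1264, 1297 and 1252 normalized counts of Bdnf and were among its 4 highest. The highest Bdnf value, 1434, was in PNS library 3, where the early gene sum was 22990, and PNS library 4, with a sum of 41150, had 1090. The early gene list was among several marker lists read in every library, and its match with Ngfr was not a planned comparison. All 9 early genes averaged higher in PNS than in Ctrl at P14 on the log2 scale (median 0.60), with 0 called by limma. The split of the libraries thus went in part with the group. These orders are descriptions of 8 libraries, and their part in any difference between the groups was not tested.

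**Figure D4:**
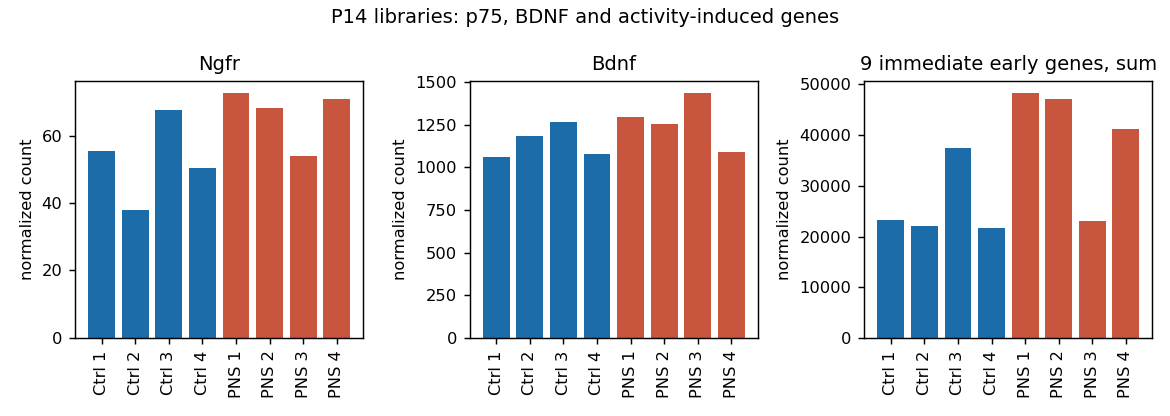
Normalized counts (linear vertical axis from 0) of Ngfr, Bdnf and the sum of 9 immediate early genes in each of the 8 P14 libraries on the horizontal axis, Ctrl and PNS in different colours. The same 4 libraries are highest in Ngfr and in the early gene sum, while the highest Bdnf value (1434) is in a library with a low sum (22990).

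Ntf5, the gene of neurotrophin-4, another ligand of TrkB, was listed at P14 only, at 0 to 10.4 normalized counts, and was not tested between ages. Of the 45 other listed pathway genes, 43 were tested between ages: 18 rose and 16 fell in Ctrl, and 18 rose and 18 fell in PNS, beside 34.8% and 36.4% of all genes called higher and lower in Ctrl and 34.3% and 38.0% in PNS. Their medians, 0.04 in Ctrl and -0.04 in PNS on the log2 scale, were near those of all genes. The relatives of sortilin, which like it sort cargo and bind proneurotrophins or Trk receptors, rose together with Sort1: 4 of 4 were called higher in both conditions, with medians of 2.14 and 2.03. Sorl1 rose by 3.0 in Ctrl and 3.40 in PNS on the log2 scale, from 46.4 to 371.8 CPM in Ctrl. Sorcs1 rose by 2.45 and 2.35, Sorcs2 by 1.83 and 1.70, and Sorcs3 by 1.40 and 1.32.

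Among 9 genes that process proneurotrophins, 5 rose and 2 fell in Ctrl and 5 rose and 3 fell in PNS. Over all genes, 34.8% in Ctrl and 34.3% in PNS were called higher, and 36.4% and 38.0% lower. The convertases of the regulated secretory pathway were those that rose most. Pcsk1 rose from 2.29 to 62.1 CPM in Ctrl and from 3.11 to 60.8 in PNS, by 4.76 and 4.30 on the log2 scale. Pcsk2 rose by 2.55 and 2.85, and carboxypeptidase E (Cpe), an enzyme that also acts as a sorting receptor for pro-BDNF, by 1.53 and 1.64. Furin, the convertase of the constitutive pathway, did not pass in either condition. Mmp9, a matrix protease that can cleave pro-BDNF outside the cell, fell by 3.0 in Ctrl, from 17.5 to 2.17 CPM, and by 2.14 in PNS, from 12.3 to 2.78 CPM. The step from ligand precursor to vesicle and cleavage thus contained genes moving in both directions.

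Of 14 adaptors and effectors of the Trk receptors, 2 rose and 8 fell in Ctrl, and 2 rose and 9 fell in PNS. Over all genes, 36.4% in Ctrl and 38.0% in PNS were called lower, and 34.8% and 34.3% higher. The medians of the 14 were -0.40 and -0.34 on the log2 scale. Sh2b2, an adaptor that binds activated Trk receptors, fell by 2.14 and 2.0 on the log2 scale in Ctrl and PNS. Kidins220, a membrane scaffold phosphorylated downstream of Trk receptors, fell by 1.16 and 0.99. Plcg1, the phospholipase C recruited by active Trk receptors, fell by 0.75 and 0.65, and the docking protein gene Frs3 fell by 0.53 and 0.61. Shc2 and Shc3, also on this list, went the other way. Shc2 averaged 37.6 CPM at P1 and 58.3 at P14 in Ctrl, and 38.5 and 55.0 in PNS. Shc3 averaged 43.1 and 70.5 CPM in Ctrl, and 39.3 and 78.7 in PNS. Grb2, Ptpn11 and Sh2b1 did not pass in either condition.

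Of 9 partners of p75, 4 rose and 4 fell in both conditions. Over all genes, 34.8% in Ctrl and 34.3% in PNS were called higher, and 36.4% and 38.0% lower. Nradd, a membrane protein related to p75 with a death domain of its own, fell by 4.0 in Ctrl and 4.22 in PNS on the log2 scale, from 8.84 to 0.541 CPM in Ctrl, and so went the way of Ngfr. Traf6, a ubiquitin ligase that binds p75, fell by 1.03 in both, and Zfp110, a zinc finger protein that interacts with p75, by 0.995 and 1.09. Rtn4r, the Nogo receptor that signals with p75 and Lingo1, rose by 0.87 and 0.93. Of 6 regulators of Bdnf transcription, 2 rose and 2 fell in both conditions. Npas4, an activity-induced factor that binds Bdnf promoters, rose by 3.63 and 3.90, and Mef2c, another activity-dependent factor, by 0.80 and 0.87. Creb1 fell by 0.57 and 0.56, and Rest, a repressor of neuronal genes, by 0.85 and 1.52. All 9 of the 9 immediate early genes, Npas4 among them, also rose, with medians of 3.73 in Ctrl and 4.64 in PNS.

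**Figure D5:**
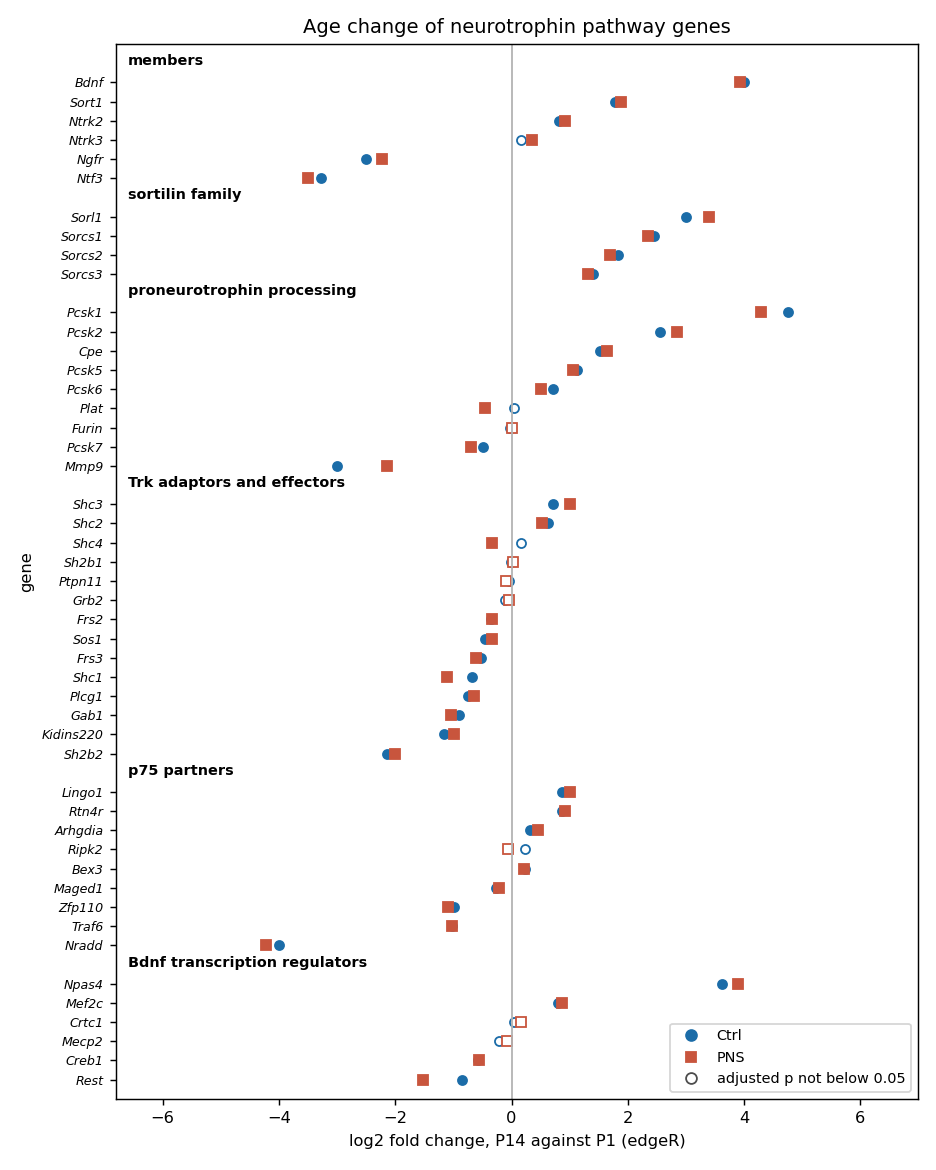
Log2 fold change from P1 to P14 by edgeR (horizontal axis, linear in log2 units) of the members and other pathway genes (vertical axis, grouped by list), with Ctrl as circles and PNS as squares. Filled symbols have an adjusted p below 0.05. Bdnf and Pcsk1 lie farthest to the right, Nradd and Ntf3 farthest to the left, and the sortilin family lies on the right with Sort1.

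Prenatal stress called 0 of 44 pathway genes tested at P1 and 0 of 43 at P14. Groups that did not overlap were found in 3.23% of all genes at P1 and 2.12% at P14. In the lists they were Sorl1 and Plat at P1 and Nradd and Plat at P14. Plat, the tissue plasminogen activator that starts the plasmin cleavage of pro-BDNF, was singled out after its values were seen. It had 1679 to 1911 normalized counts in Ctrl and 2125 to 2390 in PNS at P1, and 1138 to 1378 in Ctrl and 1027 to 1135 in PNS at P14. PNS was thus the higher group at P1 and the lower at P14, but neither difference passed limma (log2 0.33, adjusted p = 0.67, and -0.16, adjusted p = 0.99), nor did the difference between the 2 effects (-0.49, adjusted p = 0.48). Sorl1 at P1 had 2236 to 2608 normalized counts in Ctrl and 1779 to 2221 in PNS (log2 -0.22, limma adjusted p = 0.69).

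The genes most like each member over the 16 libraries were taken as those with the smallest root mean square difference in centred log2 CPM, among 17138 genes. For Bdnf they were Ptprn, a protein of dense core vesicles, and Synj2, at 0.15 to 0.16 log2 units. For Sort1 they were Arf3, St3gal5 and Dgkz (0.07 to 0.08), for Ntrk2 Flot2, Abcg4 and Slc25a44 (0.05), and for Ntrk3 Zyg11b and Sel1l (0.08). Likeness was weaker for the sparse members: Aldh1l2, Rnf182 and Dchs1 for Ntf3 (0.32 to 0.35), and Gpr139, Smtnl2 and Dlx1, a transcription factor of GABAergic neurons, for Ngfr (0.26). All of these profiles share their libraries and the step between the ages, and the likeness is a description.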

How the data were processed

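Per the labels' protocols, RNA was isolated with a column kit and sequenced by an in-house poly(A) method. The submitters' processing notes name cutadapt, STAR 2.7.3a, HTSeq, DESeq2 and the build GRCm38. Which annotation release was counted, and the strand of the libraries, is not given in the sources used here. The deposited values are a normalized signal, counts that the authors scaled with DESeq2 in 1 table per age. All positive values were whole multiples of the worth of 1 read (tolerance 0.0051), so whole reads were recovered.

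PNS and Ctrl were compared within an age, and their effects between ages, with the trend method of limma 3.58.1 in R 4.3.3. Its input was log2 of the value plus a pseudocount of 1, and genes averaging under 10 were left out. Ages were compared by the quasi-likelihood test of edgeR 4.0.16, with TMM factors, on the reads of the 18268 genes in both tables, in a fit of 16 libraries. Tests were two-sided, and a gene was called at a Benjamini-Hochberg adjusted p below 0.05 over all genes tested. Scripts were tested on simulated data. Depth ranged from 15.1 M to 73.0 M reads. Alternatives were other pseudocounts, filters, normalizations and tools (edgeR and DESeq2 1.42.0 on recovered reads), a replicate block, fits of other sets of libraries, and leaving out libraries. Levels per kilobase used the union of exons or the longest coding transcript in GRCm38. Promoter sequences are RefSeq's. Ntrk3 and Sort1 had no entry there.

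The members, lists and tests were chosen with earlier results of these data known, and the basal forebrain list after seeing the values. Beside the members, Ntf5 was named, and up to 4 called genes a list with the smallest p. Some genes that the naming rules give are not reported here. Furin, Grb2, Ptpn11, Sh2b1, Shc2, Shc3, Lingo1 and Plat were named outside this rule.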

Additional observations from a re-analysis of the deposited data

Results flagged for a closer look

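Ngfr in the third P1 control had 718.35 normalized counts, and the gap to the next control, 374.2, was 0.913 of the group's whole range; this is above Dixon's 95% critical value for 4 samples. It was the 1 group with a library so far apart among the 24 tested, 6 members in 4 groups, and chance sets about 1 in 20 groups apart in this way. The same library was the highest P1 library in Lhx8, Isl1, Gbx2 and Zic4. The part of basal forebrain or septal tissue in this value was not tested.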

How the results depend on the processing

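For prenatal stress 0 members were called under every alternative run at P1 (17), at P14 (15) and between ages (22). Counts over all genes moved: DESeq2 called 79, 5 and 11 genes, 1 fit of all 16 libraries called 1 at P1, and leaving out 1 library gave 0 to 123 at P1 (the highest without PNS library 4), 0 to 5 at P14 (without Ctrl library 4) and 0 to 65 between ages (without PNS library 4 of P1). Signs of differences that did not pass turned. Ngfr at P1 was -0.22 without PNS libraries 2 and 3 and -0.10 to 0.34 when 1 library was left out. Leaving out 1 library gave -0.013 to 0.084 for Ntrk2 and -0.027 to 0.080 for Sort1 at P14, and -0.23 to 0.14 for Bdnf and -0.41 to 0.22 for Ntf3 between ages. The cause was not tested. With age, 5 to 6 members were called in Ctrl and 6 in PNS under 14 alternatives each, the sixth in Ctrl being Ntrk3 without P1 library 4. Replicate numbers did not pair the libraries at P14, and at P1 a pairing was not settled. Same-number correlations of deviations ranged from -0.149 to 0.211 at P1 and from -0.132 to 0.027 at P14. In all, 4 of 8 libraries at P1 and 0 of 8 at P14 correlated best with their own number. Those at P1 were the libraries numbered 3 (0.133) and 4 (0.211), while different-number correlations reached 0.254. With the replicate block 0 genes were called at P1, P14 and between ages, and 11956 (Ctrl) and 10799 (PNS) with age. Depth limits Ntf3 most, with as few as 8 reads in a P14 library.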
